A study of Mus musculus with 12 samples.

Results

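Intestinal stem cells (ISCs) from 22-month-old mice were isolated in either of 2 ways, and the comparison described here set the Lgr5-GFP libraries against the SM6 libraries of that age. The members were chosen by age and isolation alone, which gave 6 of the 12 libraries of the series, 3 per isolation, with the other 6 coming from mice of 2 months. The Lgr5-GFP mice carried the Lgr5-EGFP-IRES-CreERT allele, which the labels give as strain and genotype, so that a green fluorescent protein and an inducible recombinase are made from the Lgr5 locus. The SM6 mice were wild type (WT) of strain C57/Bl6. According to the study's methods all were female, crypts were prepared from small intestine whose villi had been scraped off, and each library came from an individual mouse. SM6 stands for sorting on 6 surface markers. The sample labels describe the surface-marker sort (CD31 and CD45 negative, CD24 medium, CD166 positive, CD44 high, GRP78 low, EPHB2 high, EPCAM positive) for every library, whereas the study's supplementary text describes the reporter cells as gated on the brightest GFP. Strain, reporter allele and sort therefore changed together and cannot be told apart. Each library was sequenced from the 3' ends of transcripts, and the values are raw read counts per gene.

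Intestinal stem cells sit at the crypt base, express the Wnt receptor component Lgr5, and divide to renew the epithelium. Their daughters become absorptive enterocytes or secretory cells, namely mucus-producing goblet cells, antimicrobial Paneth cells, hormone-producing enteroendocrine cells and chemosensory tuft cells. Notch signalling holds cells on the absorptive path, and the transcription factor Atoh1 opens the secretory one.

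The 6 libraries held between 970472 and 1563336 counts, and the smallest was Lgr5-GFP replicate 3. Lgr5-GFP replicates 1 to 3 had 2.27%, 2.41% and 3.86% of counts in defensin genes, the antimicrobial peptides of Paneth cells, against 5.11%, 4.98% and 23.1% in SM6. SM6 replicate 3 stood apart from the other 5 in this share and had the lowest scaling factor, 0.803. With 3 libraries against 3, an exact two-sided permutation test over libraries gave p = 0.1 for the defensin share, the smallest it can give. The share of counts from mitochondrial genes was 7.37% to 9.33% in Lgr5-GFP and 5.77% to 6.85% in SM6, again with an exact permutation p of 0.1. The labels name no sequencing batch.

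Every library carried the RNAs that define the labelled cell type. Lgr5 itself lay at 217, 246 and 236 CPM (counts scaled to a common library size) in Lgr5-GFP and at 287, 236 and 238 CPM in SM6, and the groups overlapped (log2 fold change -0.12 ± 0.17 SE, adjusted p = 0.886). Here and below a fold change is Lgr5-GFP over SM6 on the log2 scale, from edgeR's quasi-likelihood test with Benjamini-Hochberg adjustment over all genes tested. The pan-leukocyte gene Ptprc, encoding CD45, had no count in any of the 6 libraries. Of 16 immune markers 5 were testable, of 12 stromal and endothelial markers 1, and none of these 6 was called. Summed over the list, stromal and endothelial genes reached at most 8.68 CPM in Lgr5-GFP and 8.14 CPM in SM6, and immune genes 8.68 to 20.3 CPM against 17.7 to 32.8 CPM.

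At an adjusted p under 0.05, 96 of 13368 genes tested were called, which is 0.718%. Of these 6 were higher in Lgr5-GFP (0.0449% of genes tested) and 90 were lower (0.673%), whereas scaling by library totals, which moved the median of all genes by 0.206, gave 26 higher and 81 lower. The lower genes had a median log2 fold change of -2.04, beside 0 over all genes tested, and ranged from -9.02 to -0.70. The -9.02 is a fitted value for Sst, which had no count in any Lgr5-GFP library and is given below as a limit only. Of the 90, 84 differed by more than 2-fold and 47 by more than 4-fold. In 95 of the 96 the 3 Lgr5-GFP libraries lay wholly on one side of the 3 SM6 libraries, as they did for 1810 of all genes tested, or 13.5%. Without adjustment 1256 genes had a p under 0.05, which is 9.4% of genes tested. The exception was Zg16, described with the goblet genes. Genes named by smallest adjusted p had to be called and without overlap, so the separation reported for them below followed from that choice. Leaving out Lgr5-GFP replicate 3 lowered the count to 40, of which 38 were among the 96. Without SM6 replicate 3, 101 genes were called and 74 of them were among the 96.

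**Figure D1:**
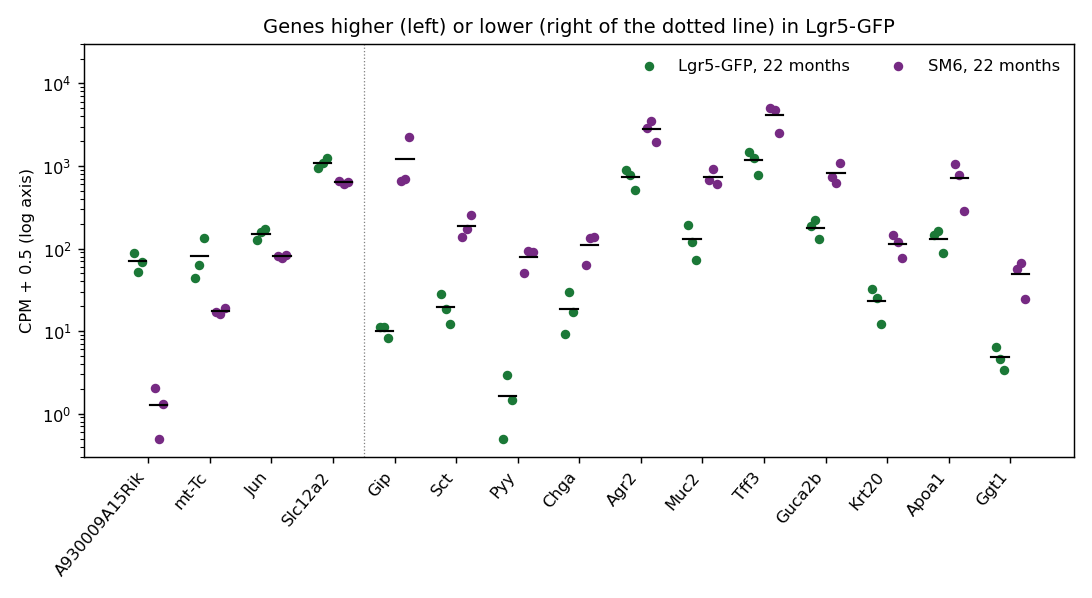
Level of 15 called genes in each library at 22 months, as CPM + 0.5 on a log axis. Green points are the 3 Lgr5-GFP libraries, purple points the 3 SM6 libraries, and black bars the group means. Genes left of the dotted line were higher in Lgr5-GFP, genes right of it lower. The points of the groups do not overlap for any gene shown, as the rule that named these genes required.

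The strongest call was A930009A15Rik, a little-characterised gene annotated as protein coding (ENSMUSG00000092210). It was read at 88.6, 52.0 and 67.5 CPM in Lgr5-GFP, and at 1.56, 0 and 0.799 CPM in SM6. The Lgr5-GFP libraries were all far above the SM6 libraries, which held 3 or fewer counts each. The ratio of the pooled counts was 94.7, with a counting interval of 32.1 to 462 (log2 fold change 6.40, adjusted p = 4.65e-07). Counting intervals here and below leave out differences between mice. At 2 months the same gene was called again (log2 fold change 5.38, adjusted p = 0.000134), with 14.5, 30.3 and 19.5 CPM against 1.21, 0 and 0 CPM.

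A930009A15Rik lies on the reporter locus. In the GRCm38 build with GENCODE annotation, Lgr5 occupies chr10:115450311-115587780 on the minus strand with 18 exons. A930009A15Rik spans chr10:115569986-115582448 on the plus strand with 5 exons, wholly inside intron 1 of Lgr5 (chr10:115520678-115587281), and ends 4833 bases from Lgr5 exon 1. The strand setting used when reads were counted was not given in the sources used here, so reads of this gene and reads from the Lgr5 intron on the other strand cannot be told apart.

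Sequence upstream of the genes on which the comparison turned is shown for A930009A15Rik, for Gip and Chga, which were also called at 2 months, and for the goblet genes Muc2 and Agr2. Each is the 250 bases before the RefSeq transcript start in GRCm38.p6, plus strand, in lower case. Capitals mark TATAAA, the core of a TATA box, and CAGCTG, an E-box of the kind bound by basic helix-loop-helix factors, searched on both strands together with CTTTGA, the core of a TCF element. CAGCTG reads the same on both strands, and no matches overlapped in the windows shown.
A930009A15Rik, chr10:115569767-115570016: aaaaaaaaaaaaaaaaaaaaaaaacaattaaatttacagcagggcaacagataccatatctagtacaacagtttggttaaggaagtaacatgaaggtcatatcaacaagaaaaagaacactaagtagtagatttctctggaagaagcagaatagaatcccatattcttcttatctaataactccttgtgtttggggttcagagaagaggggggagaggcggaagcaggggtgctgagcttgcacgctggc
Gip, chr11:96024295-96024544: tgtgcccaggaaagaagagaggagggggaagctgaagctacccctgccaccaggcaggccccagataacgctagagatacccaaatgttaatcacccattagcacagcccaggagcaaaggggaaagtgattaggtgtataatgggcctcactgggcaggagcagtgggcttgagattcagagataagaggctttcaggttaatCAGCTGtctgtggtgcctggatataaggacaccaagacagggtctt
Chga, chr12:102554691-102554940: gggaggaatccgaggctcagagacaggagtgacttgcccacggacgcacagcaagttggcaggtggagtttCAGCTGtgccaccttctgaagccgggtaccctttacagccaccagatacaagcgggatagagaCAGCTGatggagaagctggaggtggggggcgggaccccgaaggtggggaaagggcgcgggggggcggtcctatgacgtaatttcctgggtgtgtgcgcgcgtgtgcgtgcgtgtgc
Muc2, chr7:141690090-141690339: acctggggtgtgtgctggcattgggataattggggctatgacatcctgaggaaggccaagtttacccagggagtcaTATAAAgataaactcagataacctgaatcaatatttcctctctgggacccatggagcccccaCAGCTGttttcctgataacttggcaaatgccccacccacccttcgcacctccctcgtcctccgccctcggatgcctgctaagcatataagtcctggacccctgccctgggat
Agr2, chr12:35992675-35992924: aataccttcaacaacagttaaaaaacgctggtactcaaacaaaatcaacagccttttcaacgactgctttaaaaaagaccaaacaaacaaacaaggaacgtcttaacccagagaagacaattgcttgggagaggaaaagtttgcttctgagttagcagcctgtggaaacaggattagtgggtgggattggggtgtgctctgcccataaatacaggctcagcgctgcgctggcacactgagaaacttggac
The Gip window held 1 E-box, 46 to 41 bases before the start, and the Chga window held 2. Muc2 held TATAAA at 174 to 169 bases and CAGCTG at 112 to 107 bases before the start. No motif of the 3 was found in the A930009A15Rik or Agr2 windows, the former with a GC content of 38% against 62.4% for Chga. Over 98 such windows of 75 lower genes, CAGCTG was present in 15.3%, beside 11.8% of the windows of genes tested and 13% of all 32851 windows. TATAAA was present in 15.3%, 6.86% and 12.4% of the same sets, and CTTTGA in 12.2%, 10.9% and 13.8%. These matches describe the letters of the windows and were not tested.

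Among the genes lower in Lgr5-GFP, hormone genes of enteroendocrine cells held some of the largest differences. Of 18 enteroendocrine markers tested, 9 were lower in Lgr5-GFP and none was higher, with a list median of -2.63 beside 0 over all genes. Summed over the list, Lgr5-GFP libraries had 97.3, 177 and 79.1 CPM and SM6 libraries 1097, 1596 and 3402 CPM. Gip alone gave 651, 698 and 2258 CPM of the SM6 sums. In bulk samples, fewer cells of a type and less RNA per cell cannot be told apart, here and for every marker list that follows.

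Gip encodes glucose-dependent insulinotropic polypeptide, the incretin of K cells. It was at 10.7, 10.6 and 7.71 CPM in Lgr5-GFP against 651, 698 and 2258 CPM in SM6, without overlap (log2 fold change -6.93 ± 0.67 SE, adjusted p = 2.47e-06). Its largest value was in SM6 replicate 3, and without that library the log2 fold change was -6.08 and the call held (adjusted p = 4.27e-07). Sct, encoding secretin, was at 28.0, 17.9 and 11.6 CPM against 136, 173 and 252 CPM (-3.24 ± 0.33 SE, adjusted p = 3.68e-06). Pyy, encoding the satiety hormone peptide YY, had no count in Lgr5-GFP replicate 1 and 2.44 and 0.964 CPM in the other 2, whereas SM6 held 50.7, 92.3 and 89.5 CPM. The pooled SM6 counts of Pyy were 73.5 times those of Lgr5-GFP (counting interval 28.4 to 272, adjusted p = 9.09e-06).

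The granule proteins followed the hormones in direction. Chga, encoding chromogranin A, lay at 8.66, 29.3 and 16.4 CPM in Lgr5-GFP and at 63.1, 133 and 136 CPM in SM6 (-2.63 ± 0.34 SE, adjusted p = 9.4e-05). Chgb, encoding chromogranin B, lay at 17.3, 82.9 and 16.4 CPM against 123, 235 and 364 CPM (-2.63 ± 0.42 SE, adjusted p = 0.00134), the highest Lgr5-GFP library staying below the lowest SM6 library. Sst, encoding somatostatin of D cells, had no count in any Lgr5-GFP library and 1.56, 23.8 and 96.7 CPM in SM6. Against a floor of 3 counts per library it was at least 16.6-fold lower in Lgr5-GFP (adjusted p = 0.00957). SM6 replicate 3 held most of its counts, and without that library the limit was 5.18-fold and the call was lost (adjusted p = 0.0597), as it was without Lgr5-GFP replicate 1 or 3 (adjusted p of up to 0.0649). Nts, Cck and Gcg, which encode neurotensin, cholecystokinin and proglucagon, were also called lower and are named here after their values were seen, with log2 fold changes of -2.88 for Cck and -2.09 for Gcg and a pooled count ratio of 40.1 (counting interval 13.4 to 197) for Nts. Cck and Gcg each lost the call when some libraries were left out. Among the 9 enteroendocrine markers without a call, the transcription factors Neurog3, Pax4 and Isl1 had at most 6.5 CPM in any of the 6 libraries, too few to place.

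Goblet cell genes were lower as a group. Of 14 goblet markers tested, 10 were lower and none higher (list median -1.99), and all 14 fold changes were negative. The summed level was 5782, 5181 and 3363 CPM in Lgr5-GFP and 18120, 19220 and 19350 CPM in SM6, without overlap. The like sums of SM6 hid opposite deviations of replicate 3, in which Spink4, a protease inhibitor, was at 12330 CPM against 5826 and 6344 CPM in replicates 1 and 2, whereas Clca1, a secreted mucus protein, was at 95.1 CPM against 476 and 293 CPM. The count was again 10 without SM6 replicate 3 and fell to 6 without Lgr5-GFP replicate 3, the shallowest library.

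Agr2 encodes a disulfide isomerase of the endoplasmic reticulum needed for mucin folding. Its level was 903, 776 and 516 CPM in Lgr5-GFP against 2881, 3473 and 1964 CPM in SM6 (-1.92 ± 0.21 SE, adjusted p = 1.17e-05). Muc2, the main gel-forming mucin of the gut, was at 193, 120 and 72.3 CPM against 667, 918 and 605 CPM (-2.49 ± 0.32 SE, adjusted p = 9.4e-05). Neither gene overlapped between the groups, which their naming rule required, and both kept the call in each of the 12 fits that left out a library. Tff3, the trefoil peptide secreted with mucin, was at 1473, 1255 and 779 CPM against 5003, 4738 and 2509 CPM (-1.80 ± 0.24 SE, adjusted p = 0.000149). The chemokine genes Ccl6 and Ccl9, which stood on the goblet list, were lower by log2 fold changes of -2.66 ± 0.40 SE (adjusted p = 0.000686) and -2.09 ± 0.35 SE (adjusted p = 0.00222).

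Spink4, Clca1, Klk1 and Zg16 were called as well and are named after their values were seen, as Spink4 and Clca1 are above. Of the 12 fits that left out a library, Spink4 was called in 12, Zg16 in 11, Clca1 in 9 and Klk1 in 5 (adjusted p of up to 0.312). Zg16, a lectin of mucin granules, was the exception to the separation of groups. It lay at 374, 206 and 164 CPM in Lgr5-GFP, and at 1813, 1975 and 288 CPM in SM6, so SM6 replicate 3 fell below Lgr5-GFP replicate 1. Its log2 fold change was -2.45 ± 0.44 SE (adjusted p = 0.00397). Atoh1, the transcription factor of the secretory lineages, was at 24.0, 38.2 and 19.3 CPM against 79.5, 63.1 and 75.9 CPM (-1.41 ± 0.30 SE, adjusted p = 0.023). It was the only called gene of 10 tested Notch pathway members, and it lost the call in 4 of 12 fits that left out a library. In the fit that adjusted for defensin share it was not called either (adjusted p = 0.064). Spdef, a later goblet and Paneth factor, had 6.75 to 13.8 CPM against 15.6 to 25.6 CPM and was not called (-1.15 ± 0.43 SE, adjusted p = 0.365); it too was named after its values were seen.

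**Figure D2:**
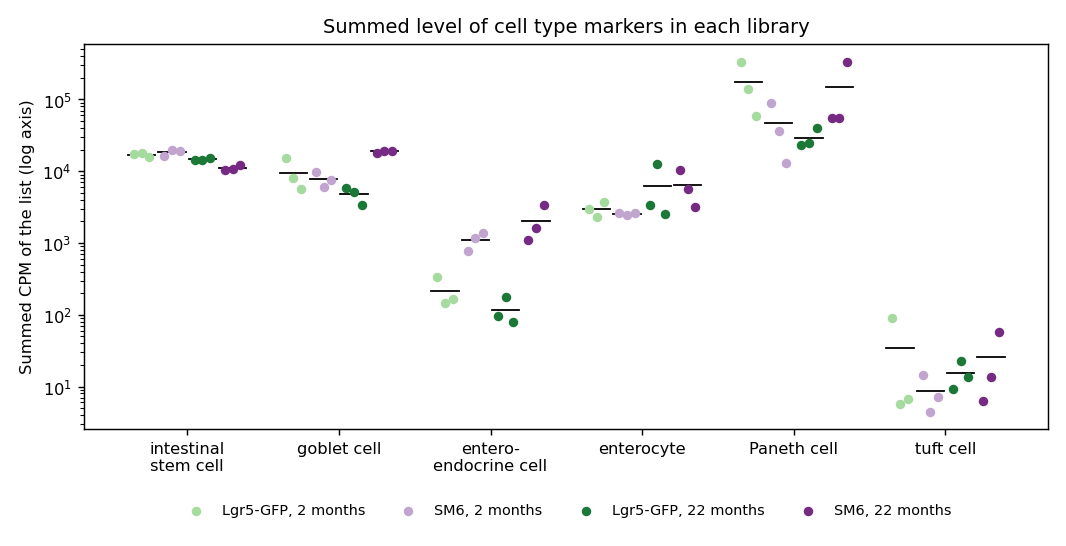
Summed CPM of cell type marker lists in each library, on a log axis, with 1 point per library, the groups of both ages in separate colours, and black bars at the group means. At 22 months the goblet sums are 3363 to 5782 in Lgr5-GFP and 18120 to 19350 in SM6, whereas the stem cell sums of both groups lie between 10570 and 15540.

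Enterocyte genes divided. Of 22 tested, 7 were lower and none higher, 21 fold changes were negative, and the list median was -1.08. Krt20, a keratin of differentiated epithelium, was at 32.0, 24.4 and 11.6 CPM in Lgr5-GFP and at 146, 121 and 76.7 CPM in SM6 (-2.29 ± 0.30 SE, adjusted p = 0.000126). Apoa1, the apolipoprotein of high-density lipoprotein, was at 144, 164 and 86.8 CPM against 1054, 786 and 281 CPM (-2.42 ± 0.33 SE, adjusted p = 0.000205). Neither overlapped, as their naming rule required, and in both SM6 replicate 3 was the lowest SM6 library.

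Brush-border enzymes among them were lower too. Lct, encoding lactase, fell by 3.00 ± 0.48 SE on the log2 scale (adjusted p = 0.00125), and Sis, encoding sucrase-isomaltase, by 1.71 ± 0.34 SE (adjusted p = 0.0131). Alpi, the intestinal alkaline phosphatase of mature enterocytes, was at 17.3, 12.2 and 7.71 CPM against 90.4, 44.8 and 24.0 CPM (-2.05 ± 0.44 SE, adjusted p = 0.0207), and its adjusted p reached 0.196 when a library was left out. Apoa4, another apolipoprotein, was also called and is named after its values were seen. Of the 12 fits that left out a library, Lct was called in 12, Apoa4 in 10, Alpi in 9 and Sis in 7. The count of called enterocyte genes was 4 when Lgr5-GFP replicate 3 or SM6 replicate 1 was left out.

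The other 15 enterocyte genes tested were not called, and 3 of them, Treh, Slc15a1 and Slc5a1, named after their values were seen, did not overlap between the groups. Fabp1, a fatty acid binding protein made in abundance by enterocytes, was at 1334, 9851 and 780 CPM in Lgr5-GFP and at 5563, 1835 and 1027 CPM in SM6. The groups overlapped widely, a single Lgr5-GFP library was the highest of the 6, and the log2 fold change of 0.51 ± 0.61 SE turned to -1.41 without Lgr5-GFP replicate 2 (adjusted p = 0.864 with all libraries). The summed enterocyte list overlapped as well, at 2555 to 12440 CPM against 3207 to 10280 CPM. Fabp1 alone gave 9851 of the 12440 CPM. Villin (Vil1), a brush-border actin-binding protein, had a log2 fold change of -0.03 ± 0.20 SE and is named after its value was seen.

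Paneth cell genes leaned the same way, but 1 library decided their size. All 17 tested markers had negative fold changes (list median -2.49), and 2, Ang4 and Mptx2, were called lower. Ang4, an antimicrobial ribonuclease, was at 186, 177 and 290 CPM in Lgr5-GFP and at 510, 577 and 4889 CPM in SM6 (-3.20 ± 0.75 SE, adjusted p = 0.0403). The pentraxin Mptx2 was at 77.3, 115 and 48.2 CPM against 163, 186 and 2620 CPM (-3.62 ± 0.85 SE, adjusted p = 0.041). In both, SM6 replicate 3 was many times higher than the other 2 SM6 libraries. Without it neither was called, with an adjusted p of 0.45 for Ang4 and 0.584 for Mptx2, and the list median was -0.90 with 0 of 17 markers called. Neither gene was called by DESeq2 or limma voom with all libraries.

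Lyz1, the lysozyme of Paneth cells, was at 1268, 1509 and 1930 CPM in Lgr5-GFP and at 2997, 2694 and 25460 CPM in SM6. The groups did not overlap, yet the log2 fold change of -2.73 ± 0.72 SE was not called (adjusted p = 0.0888). Lyz1 was called under 6 alternatives, and its log2 fold change was -0.846 without SM6 replicate 3. Defensins, Ang4 and Mptx2 have close paralogs among which reads could have been divided, so values of single family members are uncertain. The number of called Paneth genes also varied with the libraries that set the spread, since it was 13 when only the 6 libraries of 22 months were fitted.

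No tuft cell marker was called among 9 tested. Summed tuft levels were 9.33 to 22.8 CPM in Lgr5-GFP and 6.24 to 57.5 CPM in SM6, and the highest was again SM6 replicate 3. Dclk1, a kinase that marks tuft cells, had 1.33, 4.07 and 0 CPM against 0, 0 and 10.4 CPM (adjusted p = 0.915). The list median of -0.52 became 1.36 without SM6 replicate 3, so these data gave tuft genes no direction.

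Over the differentiated, immune and stromal lists together, 28 of 86 tested markers were lower in Lgr5-GFP and none was higher, with a median of -2.06. The corresponding count was 24 without SM6 replicate 3 and 17 without Lgr5-GFP replicate 3. The background for these shares is the 0.673% of all genes tested that were called lower.

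**Figure D3:**
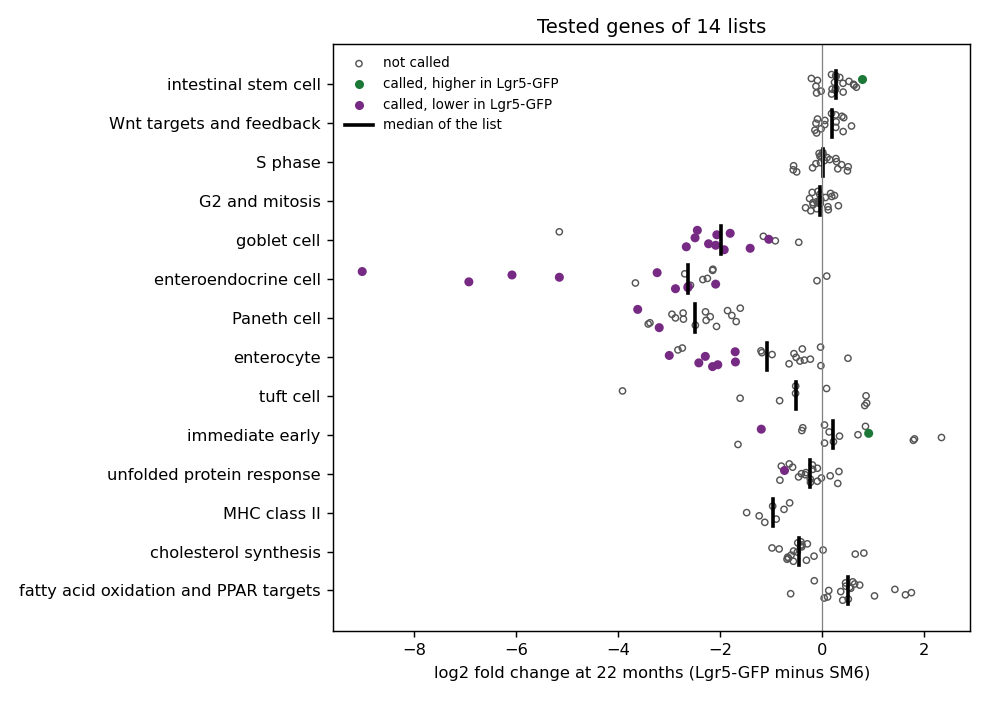
Log2 fold change at 22 months (horizontal axis, Lgr5-GFP minus SM6) of the tested members of 14 gene lists, 1 list per line and 1 point per gene. Filled points are called genes, green if higher and purple if lower, the grey line marks equal levels and black bars the list medians; enteroendocrine, goblet and Paneth points lie almost wholly left of 0, with medians of -2.63, -1.99 and -2.49, whereas stem cell markers have a median of 0.27.

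Stem cell markers differed little, and most of their fold changes were positive. Of 21 tested, 1 was higher and none lower, 5 fold changes were negative, and the list median was 0.27. The summed list was 14360, 14150 and 15540 CPM in Lgr5-GFP against 10570, 10670 and 12190 CPM in SM6, without overlap. Olfm4, described below, alone gave 7564, 7431 and 8885 CPM of the Lgr5-GFP sums and 5397, 6036 and 6552 CPM of the SM6 sums. The called gene was Slc12a2, a sodium, potassium and chloride cotransporter of crypt cells, at 935, 1099 and 1236 CPM against 655, 609 and 638 CPM (0.78 ± 0.16 SE, adjusted p = 0.013). Its call was lost without Lgr5-GFP replicate 3 or without SM6 replicate 2, with an adjusted p of up to 0.12.

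Olfm4, a secreted glycoprotein abundant in crypt base stem cells, was at 7564, 7431 and 8885 CPM in Lgr5-GFP and at 5397, 6036 and 6552 CPM in SM6. The libraries did not overlap, but the log2 fold change of 0.41 ± 0.16 SE was not called (adjusted p = 0.373). Smoc2, a matricellular protein, likewise did not overlap and was not called (0.35 ± 0.16 SE, adjusted p = 0.492). Ascl2, the Wnt-responsive factor of stem cell identity, was at 120, 105 and 113 CPM against 118, 132 and 113 CPM (-0.11 ± 0.18 SE, adjusted p = 0.918). Sox9, a crypt transcription factor, overlapped too (0.27 ± 0.19 SE, adjusted p = 0.702).

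The RNAs of the 8 genes tested for the sort antigens gave no call. Pecam1 (CD31) and Ptprc (CD45), against which cells were sorted, were at or near 0. Cd44 had a log2 fold change of -0.02 ± 0.18 SE, Epcam 0.11 ± 0.15 SE, Cd24a 0.14 ± 0.18 SE, Ephb2 0.27 ± 0.24 SE, Alcam (CD166) 0.30 ± 0.29 SE and Hspa5 (GRP78) -0.32 ± 0.20 SE. RNA levels do not give the surface protein on which cells are sorted. Over all genes tested 0.718% were called, so an absence of calls in short lists does not set them apart from other genes. Among proliferation genes, none of 20 S phase and none of 20 G2 and mitosis members was called, and Mki67, the antigen Ki-67 of cycling cells, was at 169, 210 and 202 CPM against 156, 154 and 181 CPM (0.24 ± 0.32 SE, adjusted p = 0.882). None of 15 Wnt targets and feedback genes was called, and their median of 0.18 became -0.0128 without Lgr5-GFP replicate 2 and -0.00273 without SM6 replicate 2. At an unadjusted p under 0.05, edgeR's test passed 1 of these Wnt genes and 0 of the tested sort antigen, S phase, G2 and mitosis, immune, and stromal and endothelial genes, and neither DESeq2 nor limma voom called any member of these lists after adjustment.

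Apart from A930009A15Rik and Slc12a2, 4 genes were higher in Lgr5-GFP. The mitochondrial gene mt-Tc, which encodes the transfer RNA for cysteine, was at 44.0, 62.6 and 133 CPM in Lgr5-GFP and at 16.4, 15.6 and 18.4 CPM in SM6 (2.23 ± 0.36 SE, adjusted p = 0.00146). All Lgr5-GFP libraries were above all SM6 libraries, as its naming rule required, and the call held in each fit that left out a library. The share of counts from mitochondrial genes was also higher in Lgr5-GFP, as given above, and its part in this difference was not tested. None of the other 10 tested mitochondrial transfer and ribosomal RNA genes was called. The transcript is shown because it was the second-ranked higher gene, read from the minus strand of the mitochondrial genome at its GENCODE position in GRCm38, with the anticodon in capitals at bases 29 to 31.
mt-Tc, chrM:5192-5257: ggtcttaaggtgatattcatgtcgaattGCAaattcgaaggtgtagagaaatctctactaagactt
Jun, a subunit of the transcription factor AP-1, was at 127, 156 and 172 CPM against 80.3, 77.4 and 83.1 CPM (0.91 ± 0.18 SE, adjusted p = 0.013). Vaultrc5, a short noncoding RNA related to the vault particle, was at 20.7, 19.5 and 55.0 CPM against 4.68, 4.07 and 11.2 CPM (2.23 ± 0.46 SE, adjusted p = 0.0173). Atmin, a zinc-finger protein that interacts with the DNA damage kinase ATM, was at 30.0, 18.7 and 21.2 CPM against 8.57, 4.75 and 8.79 CPM (1.68 ± 0.36 SE, adjusted p = 0.023). None of these 3 overlapped between the groups, which the rule that named them required. Each lost its call in some fits that left out a library. The adjusted p there reached 0.1 for Jun, 0.182 for Vaultrc5 and 0.153 for Atmin.

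Of 15 immediate early genes tested, Jun was higher and Klf4, a zinc-finger factor of differentiating epithelium, was lower (-1.19 ± 0.27 SE, adjusted p = 0.032), a call lost in 4 of 12 fits that left out a library (adjusted p of up to 0.182). Other AP-1 and early response genes were not called. Fos was at 30.0, 13.8 and 47.3 CPM in Lgr5-GFP against 8.57, 8.82 and 7.99 CPM in SM6, without overlap (1.81 ± 0.47 SE, adjusted p = 0.0766). Egr1, at 10.7, 24.4 and 23.1 CPM against 4.68, 7.46 and 3.99 CPM, also did not overlap (1.79 ± 0.47 SE, adjusted p = 0.0838), and it was called under 5 alternatives, DESeq2 among them (adjusted p = 0.0475). Fosb had 0.813 to 7.71 CPM against 0 to 1.36 CPM and was not called (pooled count ratio 5.32, counting interval 1.505 to 28.7, adjusted p = 0.458). Of the other transcription factors the study centred on, Irf1, a mediator of interferon signalling, had a log2 fold change of -0.39 ± 0.25 SE (adjusted p = 0.687), and Nfe2l2, the regulator of the antioxidant response, of -0.17 ± 0.20 SE (adjusted p = 0.857).

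Most other lists held no call, and 21 of the 33 lists had none. With 0.718% of all genes tested called, lists of this size could lack a call without differing from other genes. None of 80 cytosolic ribosomal protein genes, 80 nuclear-encoded respiratory chain genes, 20 cholesterol synthesis genes, 19 genes of fatty acid oxidation and PPAR targets or 19 splicing regulators was called. The cholesterol synthesis median was -0.45, with 17 of 20 fold changes negative, 9 without overlap and 7 with an unadjusted p under 0.05. Among the 80 respiratory chain genes 68 fold changes were negative, 12 genes did not overlap and 3 had an unadjusted p under 0.05. Of all genes tested 49.8% were negative, 13.5% did not overlap and 9.4% had an unadjusted p under 0.05, each by edgeR's test. The fatty acid oxidation median of 0.51 became -0.02 without Lgr5-GFP replicate 2, the library with the highest Fabp1. The 7 class II antigen presentation genes tested all had negative fold changes (median -0.97), and none was called. Nnt, a mitochondrial transhydrogenase known to vary between C57 substrains, had 2.89 to 10.0 CPM against 2.04 to 6.24 CPM (0.77 ± 0.68 SE, adjusted p = 0.789).

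Single members of further lists were lower. Manf, a secreted factor of the endoplasmic reticulum stress response, was the only called gene of 19 unfolded protein response members, at 145, 132 and 103 CPM in Lgr5-GFP and at 206, 214 and 225 CPM in SM6 (-0.75 ± 0.16 SE, adjusted p = 0.0228). Cdkn1a, encoding the cell cycle inhibitor p21, was the only called gene of 11 p53 targets and senescence genes, at 19.3, 28.5 and 22.2 CPM against 81.0, 57.0 and 62.3 CPM (-1.52 ± 0.26 SE, adjusted p = 0.00222). Neat1, the long noncoding RNA that scaffolds paraspeckles, was at 147, 80.5 and 98.4 CPM against 233, 350 and 253 CPM (-1.35 ± 0.22 SE, adjusted p = 0.00149). None of the 3 overlapped, and Cdkn1a and Neat1 were called in all 12 fits that left out a library, whereas Manf was called in 7 (adjusted p of up to 0.173). Fabp6, the bile acid binding protein of the ileum, was called near the threshold (-2.09 ± 0.50 SE, adjusted p = 0.0498) and was lost in some of those fits.

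Of the 90 lower genes, 57 belonged to none of the lists. Spink1, a trypsin inhibitor, was at 18.7, 11.4 and 4.82 CPM in Lgr5-GFP and at 132, 129 and 39.9 CPM in SM6 (-3.03 ± 0.38 SE, adjusted p = 8.06e-05). Guca2b, encoding uroguanylin, a peptide that regulates salt and water transport, was at 186, 220 and 130 CPM against 741, 628 and 1082 CPM (-2.19 ± 0.29 SE, adjusted p = 0.000126). Ggt1, the membrane enzyme that breaks down glutathione, was at 5.998, 4.066 and 2.893 CPM against 55.3, 67.2 and 24.0 CPM (-3.43 ± 0.48 SE, adjusted p = 0.000272). The groups were separate for all 3, as the rule that named them required. Summed goblet and enteroendocrine markers were lower in the same libraries, as given above, and their part in the differences of these 57 genes was not tested. SM6 replicate 3 was the lowest SM6 library for 47 of the 90 lower genes and the highest for 28.

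The libraries of 2 months allowed the same contrast in younger mice and a test of whether it differed with age. At 2 months 12 genes were called, 0.0898% of genes tested, of which 7 were higher (0.0524%) and 5 lower (0.0374%) in Lgr5-GFP, whereas scaling by library totals gave 8 higher and 17 lower. Of the 96 genes called at 22 months 3 were also called at 2 months, which is 3.125% of the 96 and 25% of the 12. These were A930009A15Rik, Gip and Chga, each in the same direction at both ages. Gip had a log2 fold change of -5.02 at 2 months (adjusted p = 0.000134) and Chga of -2.27 (adjusted p = 0.00121), and for neither was the difference between ages called (adjusted p = 0.492 and 0.87).

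The 90 lower genes had a median log2 fold change of 0.14 at 2 months, with 36 negative and 54 positive. The difference between the ages was called for 88 of the genes tested (0.658%), 7 positive (0.0524%) and 81 negative (0.606%), and for 47 of the 96, of which 46 were lower at 22 months. Scaling by library totals moved the median difference of all genes to 0.353 and gave 52 positive and 61 negative calls, 63 of these 113 among the 88. The remaining gene of the 47 was mt-Tc, at 6.93 to 18.9 CPM in Lgr5-GFP and 11.6 to 15.8 CPM in SM6 at 2 months. Guca2b gave the smallest adjusted p, since it was 428, 418 and 1010 CPM in Lgr5-GFP and 259 to 368 CPM in SM6 at 2 months (log2 fold change 1.04, difference -3.23, adjusted p = 0.000388). Muc2 had a log2 fold change of 0.02 at 2 months (difference -2.52, adjusted p = 0.00554) and Agr2 of -0.18 (difference -1.74, adjusted p = 0.00554). Dynll1, a dynein light chain, was lower at 22 months (-1.24 ± 0.19 SE, adjusted p = 0.00108) and had a value of 0.63 at 2 months (difference -1.87, adjusted p = 0.00124).

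Defensin shares were also set side by side at both ages. At 2 months the Lgr5-GFP libraries had 23.2%, 12.4% and 5.57% of counts in defensins and SM6 8.24%, 3.46% and 1.26%. The highest share was thus in Lgr5-GFP at 2 months and in SM6 at 22 months, each time in 1 library. At 2 months the groups overlapped, since SM6 replicate 1 lay above Lgr5-GFP replicate 3, and their difference was not tested. With the defensin share as a covariate, the difference between ages was called for 46 genes in place of 88, of which 28 were among the 88, and without Lgr5-GFP replicate 1 of 2 months for 41, of which 40 were among the 88. The Paneth list had a median of 2.36 at 2 months against -2.49 at 22 months.

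**Figure D4:**
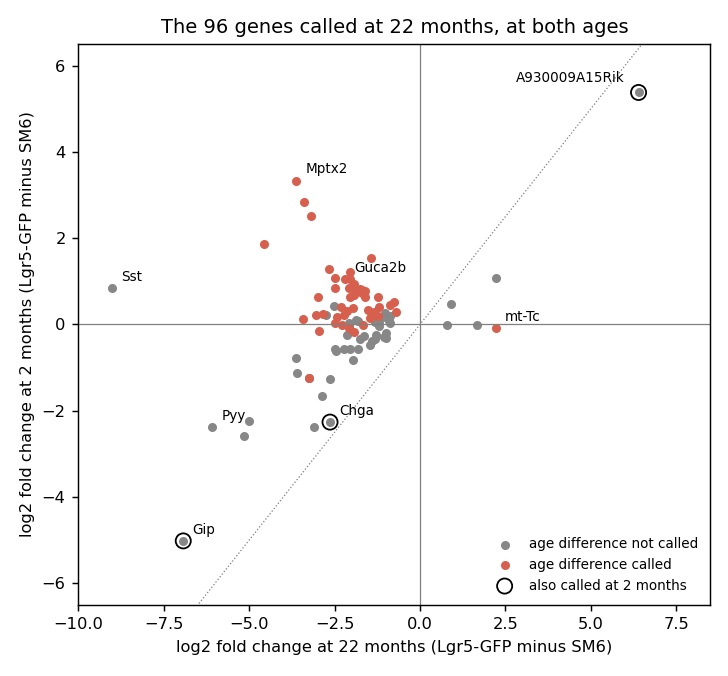
Log2 fold change of the 96 genes called at 22 months (horizontal axis) against the same contrast at 2 months (vertical axis), both Lgr5-GFP minus SM6, with the dotted line at equal values. Red points are the 47 genes whose difference between ages was called, circled points the 3 genes called at both ages, and most points lie left of 0 on the horizontal axis and near 0 on the vertical axis.

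Genes near the reporter locus were counted apart. Within 1 Mb of Lgr5 1 of 14 tested genes was called, within 10 Mb 1 of 72, in both cases A930009A15Rik itself, and within 20 Mb 2 of 168, or 1.19%, beside 0.718% over all genes tested. The second was the hormone gene Nts, already counted among the enteroendocrine markers. These 168 genes had a median of 0.02 on that scale.

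**Figure D5:**
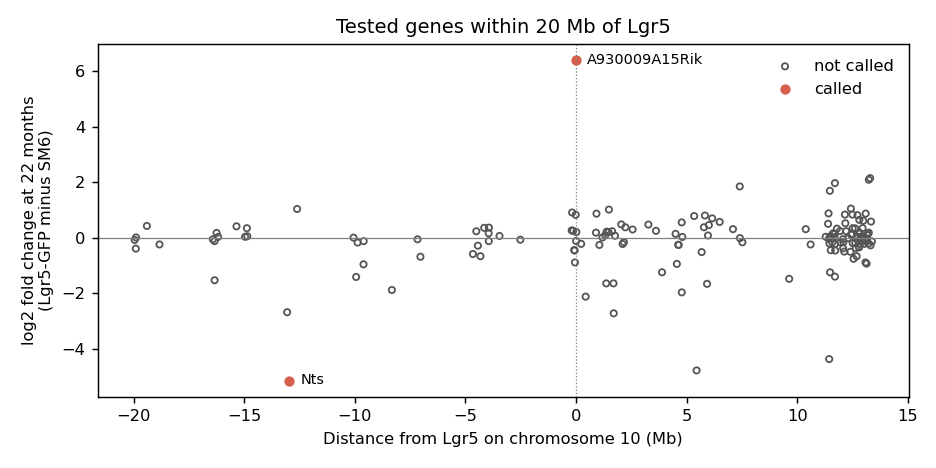
Log2 fold change at 22 months of the 168 tested genes within 20 Mb of Lgr5, against the distance from Lgr5 on chromosome 10 in Mb, with called genes filled in red and the dotted line at Lgr5. A930009A15Rik stands at 6.40 at a distance of about 0, Nts is the other called gene, and the remaining points scatter around a median of 0.02.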

How the data were processed

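RNA was measured by 3'-biased sequencing of 12 libraries of sorted small intestinal crypt cells. The authors mapped reads with STAR 2.4.2a to the mouse genome (GRCm38) and deposited raw counts per gene, made with featureCounts over GENCODE exons. The protocol describes unique molecular identifiers of 10 bases. Whether duplicates were collapsed, and the strand setting, were not given in the sources used here. Counting intervals came from counts pooled over the libraries of a group, so they leave out differences between mice. If duplicates were not collapsed, the intervals are too narrow even for counting error.

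From these counts, 13368 of 54232 genes with more than 5 reads and at least 1 CPM in any library were tested. All 12 libraries entered 1 fit with a mean per group in edgeR 4.0.16 (R 4.3.3), with trimmed mean of M values (TMM) scaling, quasi-likelihood F tests (two-sided) and Benjamini-Hochberg adjustment, called under 0.05. CPM were computed on the TMM-scaled library sizes. The contrasts were Lgr5-GFP minus SM6 at 22 months, at 2 months, and their difference, and the latter shares libraries with the former. The fit was run on simulated counts with known fold changes and checked for the 22-month contrast alone. No library of high defensin share was simulated. Replicates differed beyond sampling noise in every group. Replicate numbers were not taken to pair the samples at either age, since nothing in the labels pairs them and each library came from an individual mouse. No same-numbered libraries' deviations correlated over 0.1, which cannot exclude a shared preparation. Gene positions came from GENCODE vM21 (54165 identifiers matched), and upstream sequence from RefSeq tables. Figures used Python 3.11.15 and matplotlib 3.10.9.

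Genes named were up to 12 higher and 12 lower with the smallest adjusted p among called genes without overlap, fixed genes (stem, lineage and sort markers and the study's transcription factors), up to 5 genes and the extremes of each of 33 lists, and up to 4 genes with the smallest adjusted p for the difference between ages. Some genes of these rules are not reported here. Others are said to be named after their values were seen. The libraries, lists and rules were chosen with earlier results of these data known. Alternatives were other scalings, DESeq2 1.42.0, limma 3.58.1 (voom with quality weights), other filters, fits of 6 libraries, a replicate block, the defensin share as a covariate, a threshold of 0.01, leaving out each library, and 2 added after seeing the data.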

Additional observations from a re-analysis of the deposited data

Results flagged for a closer look

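For 22 of the genes that the naming rules chose and that are reported here, the difference between Lgr5-GFP and SM6 changed with age: the contrast at 22 months minus the contrast at 2 months passed the test of that difference itself, in edgeR's quasi-likelihood fit with adjusted p from 0.000388 to 0.0495. Over all genes tested 88 passed, or 0.658%. The naming rules drew on calls at 22 months, which share libraries with this difference, and on the difference itself. The count of 22 was therefore partly fixed by the choice of genes. Genes named after their values were seen, such as Spink4 (difference -2.91, adjusted p = 0.00554), are not counted among the 22. All values that follow are this difference on the log2 scale, and all but 1 were negative.

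Among goblet genes of the 22 the difference was -2.52 for Muc2, -1.74 for Agr2, -3.95 for Ccl6 and -2.01 for Ccl9. Among enterocyte genes it was -2.28 for Krt20, -2.6 for Apoa1, -3.63 for Lct, -2.51 for Sis and -3.26 for Alpi. Sct, the only enteroendocrine gene in this set, had -2, since it was also lower in Lgr5-GFP at 2 months (log2 fold change -1.24) without being called there. Among Paneth and antimicrobial genes the difference was -5.13 for Lyz1, -5.71 for Ang4, -6.95 for Mptx2 and -4.13 for Reg3g. Reg3g had log2 fold changes of -1.6 at 22 months and 2.53 at 2 months. At 22 months Lyz1 had -2.73, Ang4 -3.2 and Mptx2 -3.62. Without SM6 replicate 3 the 22-month log2 fold changes were -0.846 for Lyz1, -1.31 for Ang4, -1.1 for Mptx2 and -0.907 for Reg3g. The other lower genes were Guca2b with -3.23, Spink1 with -3.26, Ggt1 with -3.57, Dynll1 with -1.87, Cdkn1a with -1.85, Neat1 with -1.65 and Manf with -1.27. The positive difference was 2.31 for mt-Tc.

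Defensin genes took 23.1% of counts in SM6 replicate 3 of 22 months and 23.2% in Lgr5-GFP replicate 1 of 2 months. These libraries lie on opposite sides of the 2 contrasts, and their part in the differences was not tested gene by gene. Without both, 59 genes in place of 88 were called for the difference, of which 43 were among the 88, so 45 of the 88 calls were lost.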

How the results depend on the processing

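At 22 months the 96 calls became 97 with DESeq2 size factors, 115 with DESeq2, 86 with limma voom, 90 with edgeR's expression filter, 109 with only the 6 libraries of that age (84 of them among the 96) and 108 with the defensin share as covariate (78 among the 96, without Atoh1 and Mptx2). Library totals gave 107 calls (74 among the 96), 26 higher and 81 lower against 6 and 90, and moved the median of all genes by 0.206. More genes tested without a filter gave 228, and a threshold of 0.01 gave 43. Leaving out a library gave 40 (Lgr5-GFP replicate 3) to 120 calls, and 35 of the 96, of which 33 were lower, were called in all 12 such fits. Without both libraries over 20% defensin it was 114, and with Paneth and defensin genes removed 95; these 2 were chosen after seeing the data.

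At 2 months the 12 calls became 25 with library totals (8 higher, 17 lower), 22 with DESeq2, 22 with voom, 125 without a filter, 24 with the defensin covariate, 6 at 0.01, 20 without both high-defensin libraries and 6 to 39 leaving out a library, the last without SM6 replicate 3 of 22 months. The difference between ages went from 88 to 113 with library totals (52 positive, 61 negative; 25 of the 88 lost), 67 with voom (31 lost), 224 without a filter, 46 with the covariate (28 among the 88), 22 at 0.01, and 41 to 98 leaving out a library. Apart from the filter and threshold, the cause was not tested.

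With a replicate block the counts were 97 at 22 months, 11 at 2 months and 104 for the difference; deviations of same-numbered libraries correlated at 0.05, 0.01 and -0.02 at 22 months and at 0.09, 0.03 and 0.07 at 2 months, none over 0.1, and nothing in the labels pairs them. At 2 months every library correlated best with its own number, at 22 months not every one did. Of the 96 calls 90 were called with the block and 6 were not, Ang4 and Mptx2 among the latter, and of the 88 for the difference 86 were.

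Among values for named genes under the alternatives, 1194 kept direction and side of the threshold, 69 lost a call, 14 gained one and 23 changed sign, none of these called. With library totals Lgr5 was 0.0779, Ascl2 0.0926, Nfe2l2 0.0336, Pecam1 0.0662 and Cd44 0.214. With voom Dclk1 was 1.08, Fabp1 -0.433, Pecam1 0.341 and Cd44 0.0285, with the covariate Dclk1 4.38 and Cd44 0.183, and with the replicate block Pecam1 0.188. Leaving out each library in turn gave a range of -2.02 to 4.66 for Dclk1, -1.41 to 1.49 for Fabp1, -0.8 to 4.2 for Pecam1, -0.0641 to 0.608 for Alcam, -0.135 to 0.226 for Cd44 and -0.465 to 0.0162 for Hspa5; without both high-defensin libraries Cd44 was 0.226 and Hspa5 0.0164.

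Totals of 970472 to 1563336 counts set a floor of 1.999 to 2.893 CPM for 3 counts.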

Other observations

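Further genes lower in Lgr5-GFP at 22 months belonged to no list and were chosen after their values were seen, so they describe these libraries and give no enrichment. Several are known from the apical surface of enterocytes. Slc6a19, the neutral amino acid transporter, fell by 2.84 ± 0.44 SE on the log2 scale (adjusted p = 0.000948), and the surface peptidases Dpep1, Ace, Enpep and Mep1b had log2 fold changes of -2.23, -2.06, -2.04 and -1.93. Cdhr2 and Cdhr5, the cadherins that link microvilli, had log2 fold changes of -0.90 and -1.04, and the actin-bundling protein gene Espn of -1.61. Slc51a, a subunit of the basolateral bile acid exporter, had -1.74. Of the 12 fits that left out a library, Slc6a19 was called in 12, Dpep1 in 11, Ace in 9, Slc51a and Cdhr5 in 8, Enpep, Mep1b and Espn in 7, and Cdhr2 in 6.

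Others act in the endoplasmic reticulum, where secreted proteins fold. Selenom had a log2 fold change of -1.67 ± 0.27 SE (adjusted p = 0.00131), the disulfide isomerase genes Txndc5 and Pdia5 of -1.004 and -1.41, the peptidyl-prolyl isomerase gene Fkbp11 of -1.44 and the ribosome-binding protein gene Rrbp1 of -0.70, the smallest difference among the lower genes. Selenom and Txndc5 were called in 12 of those 12 fits, Pdia5 in 10, Fkbp11 in 7 and Rrbp1 in 3, with an adjusted p of up to 0.222 for Rrbp1. S100a6, a calcium-binding protein gene, had a log2 fold change of -2.95 ± 0.48 SE, with the membrane-associated Anxa2 at -1.005 and the galectin gene Lgals3 at -1.75. Guca2a, encoding guanylin, the partner of uroguanylin, had -1.33 ± 0.30 SE (adjusted p = 0.0339), and Reg4, a secreted lectin gene, had -2.48 ± 0.51 SE (adjusted p = 0.0173). Of the 12 fits S100a6 was called in 12, Reg4 in 9, and Anxa2, Lgals3 and Guca2a in 8, and Reg4 was not called without SM6 replicate 3 (adjusted p = 0.102). Goblet, enteroendocrine and enterocyte markers moved in the same direction in these libraries, and their part in these differences was not tested.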
